A study of Danio rerio with 16 samples.

Results

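Crystallins are the soluble proteins that fill the fibre cells of the eye lens. Alpha crystallins are small heat shock proteins that keep other lens proteins in solution, whereas beta and gamma crystallins share a double Greek key fold and form a separate superfamily. Fish lenses are rich in gamma M crystallins, a methionine-rich group of the fish and amphibian lens. In zebrafish the lens forms during the first days of development, and fibre cells accumulate crystallin mRNA as they differentiate.

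The members described here are the alpha, beta and gamma crystallin genes of the deposited expression table, chosen by symbol (cry followed by a, b or g). They were 59 of 32513 rows, and 8 cryptochromes and 4 other genes whose symbols start with cry were left out. By symbol they fell into 3 alpha, 7 beta A, 6 beta B, 35 gamma M, 2 gamma N and 4 gamma S genes, with crybgx and crybg3 as a small beta-gamma class. Of the gamma M genes, 21 carry crygm2d symbols and are treated as a class of their own. crybgx is named as a beta-gamma crystallin, while crybg3 encodes a larger protein with beta-gamma domains that is not counted among the lens crystallins.

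The study asked whether radiofrequency radiation (RFR) at 3.5 GHz, a frequency used for 5G telephony, alters transcription in zebrafish (Danio rerio) development. Total RNA of whole embryos was sequenced in 16 libraries, 4 in each of 4 groups. The groups are embryos exposed from 6 to 48 hours post fertilization (hpf) at about 30 dBm and collected at 120 hpf, unexposed controls collected at 120 hpf, embryos exposed in the same way and collected at 48 hpf, and unexposed controls collected at 48 hpf. No strain or transgene is named in the labels, and neither the number of embryos pooled per library nor the parentage of the replicates is given. The p-values therefore reflect the spread between these libraries alone, which may be technical.

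Levels are in FPKM, which divides a gene's fragments by its transcript length and by the library's mapped total. Libraries held 39603976 to 49232542 filtered reads, and the mapped share was 66.19 to 67.58% for the 120 hpf stage and 69.37 to 71.78% for the 48 hpf stage. Control 120 hpf replicate 1 carried 3.2% rRNA, and the other libraries 0.15 to 0.3%. Because RNA came from whole embryos, fewer lens cells and less crystallin RNA per lens cell cannot be told apart in any value below.

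Crystallin mRNA made up 1.37 to 4.22% of all FPKM, depending on the library. Summed over the 59 genes it reached 24482, 25591, 19957 and 25840 FPKM in the 4 RFR libraries of 120 hpf, against 22610, 22199, 21983 and 23758 FPKM in the 4 controls of that stage. At 48 hpf the sums were 10137, 14980, 15333 and 14790 FPKM in RFR libraries, against 10794, 8433, 11348 and 11872 FPKM in controls. These sums are 3.28 to 4.22% of all FPKM in RFR and 3.55 to 3.86% in control libraries at 120 hpf, and 1.65 to 2.59% in RFR and 1.37 to 1.96% in control libraries at 48 hpf.

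The family split into a high and a low set with little between them. Averaged over all libraries, 33 genes stood at 100 FPKM or more, 2 genes at 10 to 100 FPKM (cryaa and cryba1l2) and 24 genes under 10 FPKM. The lowest of the high set was crybgx at 167 FPKM, and the highest of the low set was crygm5 at 7.24 FPKM. The high set held all 21 crygm2d genes, 5 beta A and 3 beta B genes, crygmx and crygmxl2 of the other gamma M genes, crygn2 and crybgx, and it gave 99.2% of the crystallin FPKM in both groups of 120 hpf and 99.4% in both of 48 hpf. The most abundant crystallin mRNA in every group was crybb1, which encodes a basic beta crystallin and ranked 64th of all genes in RFR and 64th in control embryos of 120 hpf, and 110th in RFR and 130th in control embryos of 48 hpf.

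The alpha class was dominated by cryaa, the lens chaperone alpha A crystallin. It stood at 91.7 ± 15.6 FPKM in RFR and 86.5 ± 2.68 FPKM in control embryos of 120 hpf (SD, n = 4 each), and at 34.7 ± 6.69 FPKM in RFR and 26.3 ± 4.02 FPKM in control embryos of 48 hpf. The alpha B genes lay near the floor of the table. cryabb averaged 0.748 FPKM in RFR and 0.785 FPKM in control embryos of 120 hpf, and cryaba was at 0.23 FPKM or below in every library.

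Most of the acidic beta A genes were abundant, while the basic beta B genes were split between abundant and scarce members. Of the 7 beta A genes, 5 averaged over 100 FPKM, and the lowest, cryba1a, averaged 6.2 FPKM over all libraries. The highest beta A means at 120 hpf were those of cryba4 (1372 FPKM in RFR, 1303 FPKM in control), cryba1l1 (1107 FPKM in RFR, 1053 FPKM in control) and cryba1b (983 FPKM in RFR, 947 FPKM in control). Of the beta B genes, crybb1, crybb1l2 and crybb1l1 were abundant, at 1561, 834 and 807 FPKM in RFR and 1545, 797 and 785 FPKM in control embryos of 120 hpf. crybb2, whose mammalian ortholog is a major protein of the adult lens, and crybb3 stayed at 0.72 FPKM or below in every library.

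The gamma class gave 65.2% of crystallin FPKM in RFR and 64.5% in control embryos of 120 hpf, and 59.4% in RFR and 57.1% in control embryos of 48 hpf. Its 21 crygm2d genes alone gave 56.6% in RFR and 55.7% in control embryos of 120 hpf. At that stage they ranged over 249 to 1111 FPKM in RFR and 216 to 1070 FPKM in control means, with crygm2d6 lowest and crygm2d10 highest in both groups. At 48 hpf the range was wider, 34.5 to 613 FPKM in RFR and 14.2 to 458 FPKM in control means, with crygm2d11 lowest in both. crygm2d genes are close copies of each other, so reads may have been split between them in the authors' quantification, and single crygm2d levels are less certain than their sum.

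The remaining gamma genes were uneven. Of the 14 other gamma M genes, crygmxl2 and crygmx averaged 448 and 412 FPKM in RFR and 412 and 413 FPKM in control embryos of 120 hpf, while the other 12 did not pass a mean of 15.8 FPKM in any group. crygn2, a gamma N crystallin of a type that shares features of the beta and gamma branches, stood at 1146 FPKM in RFR and 1102 FPKM in control embryos of 120 hpf, against 13.2 and 12.2 FPKM for its paralog crygn1. The 4 gamma S genes, relatives of the gamma S crystallin of the mammalian lens, summed to at most 3.4 FPKM in any library.

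**Figure D1:**
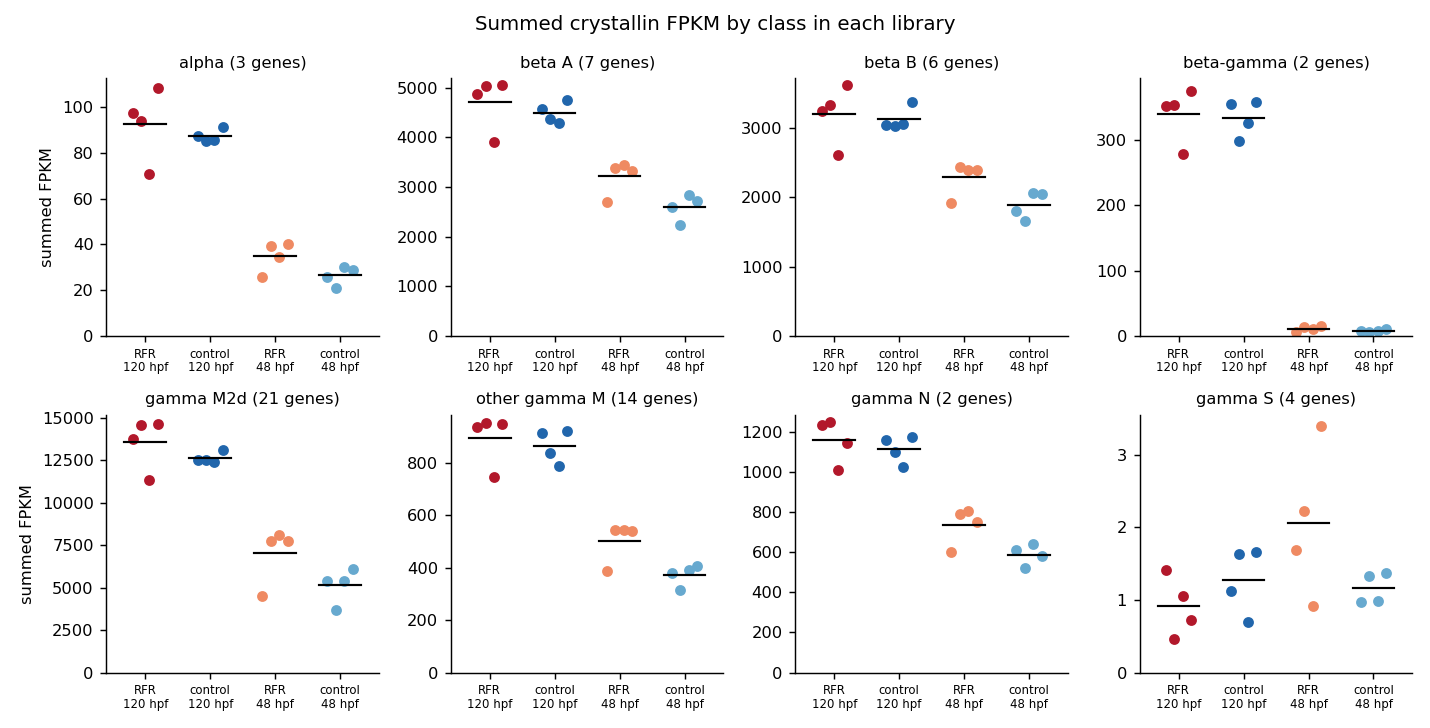
Summed FPKM of each crystallin class (y axis, from 0, with its own scale per panel) in the 16 libraries, with RFR left of control at 120 hpf and then at 48 hpf. Points are libraries and bars are group means. In the crygm2d panel 1 RFR library of 48 hpf (4493 FPKM) lies among the controls (3672 to 6090 FPKM) and the other RFR libraries (7732 to 8098 FPKM) lie above them.

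High and low gamma genes were also set apart by their place in the genome. In the RefSeq gene table (assembly GRCz12tu, used here only for the order of genes), 34 gamma M and gamma S genes follow each other on 1 chromosome with at most 1 other coding gene between neighbours. The 21 crygm2d genes form an unbroken stretch within it, from place 9 (crygm2d13) to place 29 (crygm2d1), and each averaged 178 to 813 FPKM over all libraries. The 8 genes before them (crygm7, crygm6, crygm1, crygm2c, crygmxl1, crygm2b, crygm2a and crygm2e) averaged 0.0225 to 2.1 FPKM, and the 5 genes after them (crygm2f, crygm5, crygm3, crygs4 and crygs3) averaged 0.0288 to 7.24 FPKM. Several of the low genes carry symbols of the same crygm2 series. This is a description of 1 locus, with no test.

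**Figure D2:**
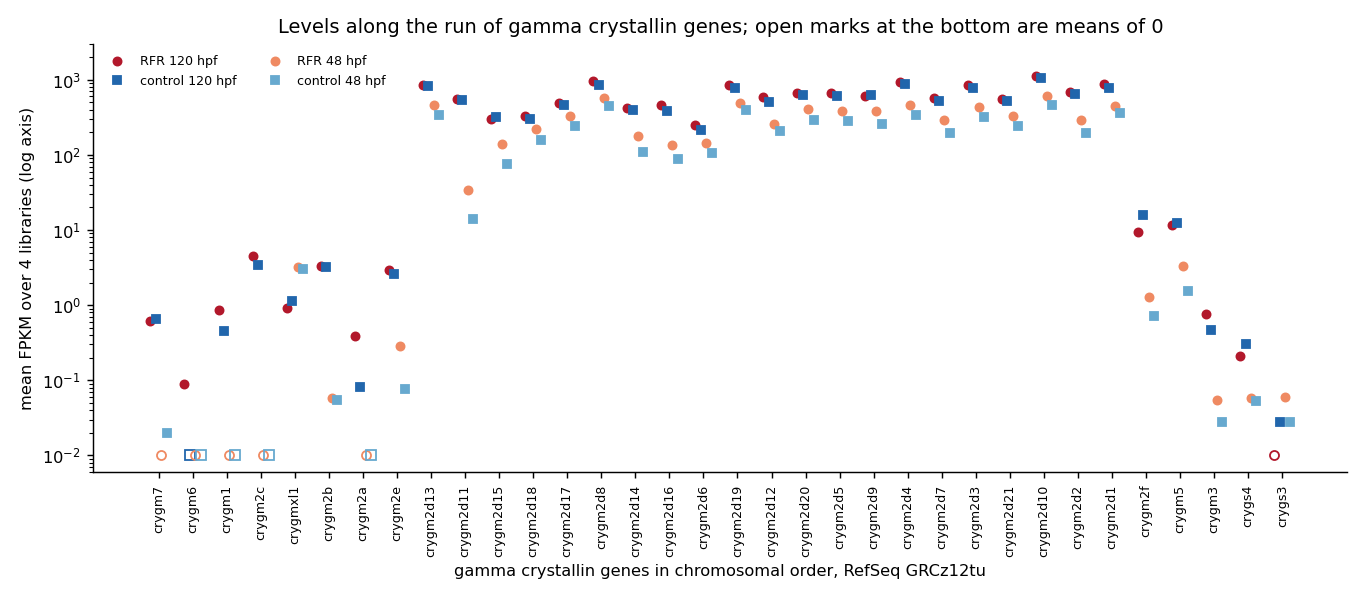
Mean FPKM of 4 libraries (log axis) for the 34 neighbouring gamma crystallin genes in their RefSeq GRCz12tu order, with circles for RFR and squares for control and the darker pair for 120 hpf. Open marks are means of 0. The 21 crygm2d genes stand at 14.2 FPKM or more in every group, and the genes on either side stay at 15.8 FPKM or below.

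Outside this locus, 10 members stood in 5 pairs with no coding gene between the partners, and 15 stood alone. Each pair joined 2 beta genes or 2 gamma genes: crybb1 with cryba4, crybb1l1 with cryba1l1, crybb1l2 with cryba1l2, crybb1l3 with cryba1a, and crygmx with crygmxl2. Partners were of like level in 4 of the pairs. The exception was crybb1l2, at 681 FPKM over all libraries, next to cryba1l2 at 22.9 FPKM.

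At 48 hpf, the end of the exposure, crystallin mRNA averaged 1.3 times as much in RFR as in control embryos, but no crystallin passed the test. Every one of the 33 genes abundant over all libraries had the higher mean in RFR embryos, at 1.18 to 2.47 times the control mean with a median of 1.34. The highest ratios were those of crybgx (2.47) and crygm2d11 (2.42), which were low at this stage. Their means were 5.52 and 34.5 FPKM in RFR, against 2.24 and 14.2 FPKM in control embryos. The next highest ratio was 1.83, for crygm2d15. The excess was seen in 3 of the 4 RFR libraries, and RFR replicate 1 lay among the controls. The class ratios of RFR over control were 1.37 for crygm2d genes, 1.35 for other gamma M, 1.32 for alpha, 1.25 for gamma N, 1.24 for beta A and 1.21 for beta B. They were 1.46 for beta-gamma and 1.77 for gamma S, classes that summed to at most 14.7 FPKM in any library of that stage. RFR and control sums overlapped in each class.

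Of the 59 genes, 52 reached 0.5 FPKM in at least 4 libraries and were tested with limma on log2(FPKM + 0.5). The log2 fold change of RFR over control at 48 hpf was above 0 in 48 of the 52 and below 0 in 2 (crybb1l3 and crygm7), while crygm1 and crygm2c were listed at 0 in all libraries of that stage. The median was 0.33 over crystallins and 0.04 over all 23026 genes tested, of which 13937 were above 0 and 9030 below. At a Benjamini-Hochberg adjusted p under 0.05, limma called 0 crystallins and 0.00434% of all genes, and the smallest adjusted p of a crystallin was 0.257. At an unadjusted p under 0.05, 27 crystallins were higher and 0 were lower in RFR embryos, and 7.3% of all genes were higher.

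Among the larger classes, the medians of these log2 fold changes were 0.46 for crygm2d genes, positive in 21 of 21, 0.32 for beta A genes, positive in 7 of 7, 0.22 for other gamma M genes, positive in 7 of 10, and 0.13 for beta B genes, positive in 5 of 6. The classes with 2 tested genes had medians of 0.47 for beta-gamma, 0.43 for gamma S, 0.28 for gamma N and 0.23 for alpha. The low beta B genes gave 0.02 for crybb2, 0.01 for crybb3 and -0.13 for crybb1l3, the most negative value of the family. The crygm2d values lay between 0.29 for crygm2d19 and 1.25 for crygm2d11. As close copies these genes are not independent measurements.

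crygmx had the smallest p of the family. It measured 144.04, 175.01, 151.52 and 157.44 FPKM in RFR embryos of 48 hpf, against 129.92, 118.05, 130.01 and 121.04 FPKM in controls. Every RFR library was above every control, with a log2 fold change of 0.33 ± 0.09 (SE) and an adjusted p of 0.257 in limma. The only other crystallin whose groups did not overlap was crybb1, with 962, 1174, 1101 and 1140 FPKM in RFR and 822, 830, 942 and 939 FPKM in control embryos of 48 hpf. Its log2 fold change was 0.31 ± 0.09 (SE), with an adjusted p of 0.304 in limma. Such a separation was seen in 2 of 52 crystallins and in 3% of all genes, so its rate in the family was near the background.

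crygm2d15 had the next smallest p. It measured 67.4, 161.93, 145.4 and 185.16 FPKM in RFR embryos of 48 hpf, against 84.62, 60.71, 76.48 and 84.03 FPKM in controls. RFR replicates 2, 3 and 4 stood well above all controls, and replicate 1 lay between the control values. The log2 fold change was 0.78 ± 0.22 (SE), with an adjusted p of 0.267 in limma.

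crygm2d11, the lowest crygm2d gene of 48 hpf, had the same 3 RFR libraries above its other values. Its FPKM were 9.07, 40.79, 29.17 and 58.81 in RFR embryos of 48 hpf, against 15.49, 4.17, 10 and 27.27 in controls, so the groups overlapped. The log2 fold change of 1.25 ± 0.49 (SE) was the largest of the family and had an adjusted p of 0.402 in limma. crybgx, which is low at this stage, measured 0.63, 7.6, 4.32 and 9.53 FPKM in RFR and 1.67, 1.24, 1.27 and 4.77 FPKM in control embryos, with a log2 fold change of 0.91 ± 0.5 (SE) and an adjusted p of 0.607 in limma.

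The other genes with the smallest p at 48 hpf were crygmxl2, cryba4, cryba2a, crygn2, crygm2d9, crygm2d10 and crygm2d17, whose log2 fold changes lay between 0.32 and 0.56 with limma adjusted p between 0.295 and 0.343. For crygmxl2 the means were 339 ± 65.6 FPKM in RFR and 242 ± 36.4 FPKM in control embryos (SD, n = 4 each). For crygn2 they were 735 ± 93.5 FPKM in RFR and 588 ± 52.8 FPKM in control embryos. cryaa differed by 0.38 ± 0.15 (SE) on the log2 scale, with an adjusted p of 0.396 in limma, and crybg3, the member outside the lens family, by 0.04 ± 0.09.

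The size of the RFR difference at 48 hpf rested on which libraries were in the fit. RFR replicate 1 was the lowest RFR library for all 33 abundant genes, inside the control range for 30 of them, above it for 2 and below it for 1. Control replicate 2 was the lowest control for 32 of the 33. Replicates 2 to 4 of RFR all lay above every control in 31 of the 33.

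Without RFR replicate 1, limma called 18 crystallins, all higher in RFR embryos, against 1.52% of all genes called higher. They were 13 crygm2d genes (crygm2d2, crygm2d4, crygm2d7, crygm2d9, crygm2d10, crygm2d11, crygm2d13, crygm2d14, crygm2d15, crygm2d17, crygm2d18, crygm2d20 and crygm2d21) with cryba2a, cryba4, crybgx, crygmxl2 and crygn2, at log2 fold changes of 0.41 to 1.78. In this fit crygm2d15 had a log2 fold change of 1.1 ± 0.1 (SE) and a limma adjusted p of 0.000576. Every remaining RFR library lay above every control in 34 of the 52 tested crystallins and in 10.1% of all genes, and the crystallin median was 0.52. Leaving out a library because of its values chooses the answer in part, so the fit on all libraries remains the main result. Without control replicate 2, the lowest control, 0 crystallins were called and the median was 0.26.

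**Figure D3:**
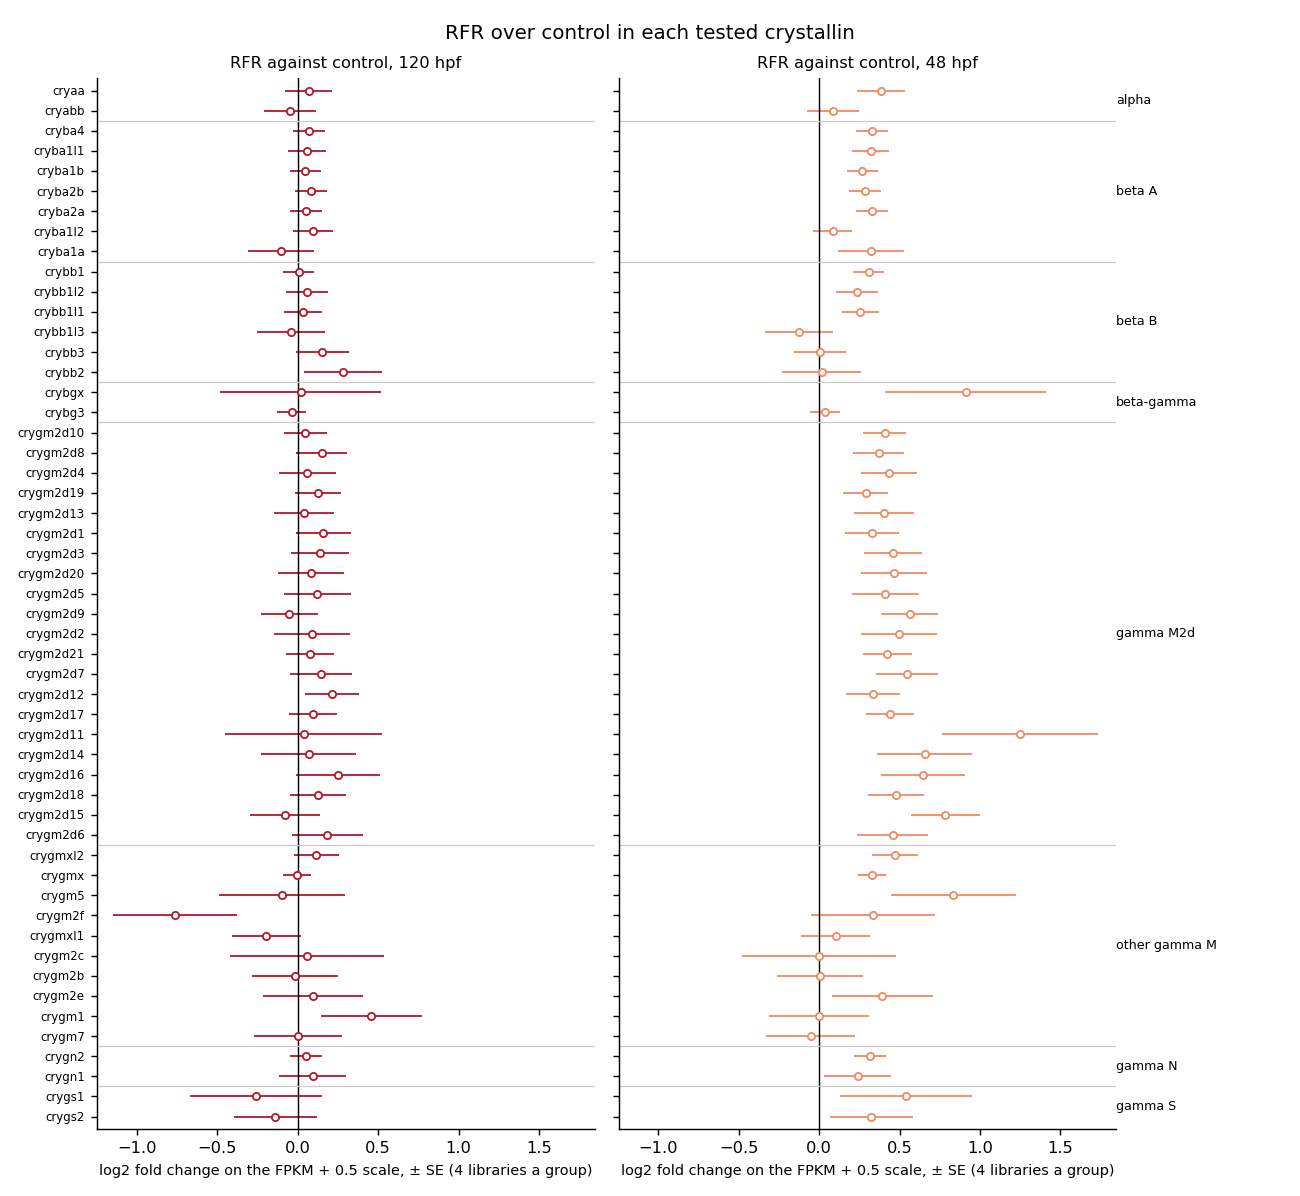
Log2 fold change of RFR over control on the FPKM + 0.5 scale (x axis, ± SE, 4 libraries a group) for the 52 tested crystallins, at 120 hpf in the left panel and at 48 hpf in the right. Genes are ordered by class and by level. All marks are open because no gene passed an adjusted p of 0.05. At 48 hpf 48 values are above 0 with a median of 0.33, and at 120 hpf 39 are above 0 with a median of 0.06.

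The 3 RFR libraries with more crystallin mRNA also differed from the controls in the rest of the transcriptome. On the first principal component of all tested genes other than crystallins, which held 83.1% of the variance and separated the stages, RFR 48 hpf replicates 2 to 4 lay at -86.36, -76.8 and -86.73 and replicate 1 at -100.1, against -92.33, -101, -97.4 and -91 in the controls of 48 hpf. Higher values are nearer to 120 hpf. The part of this shift in the crystallin values was not tested.

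**Figure D4:**
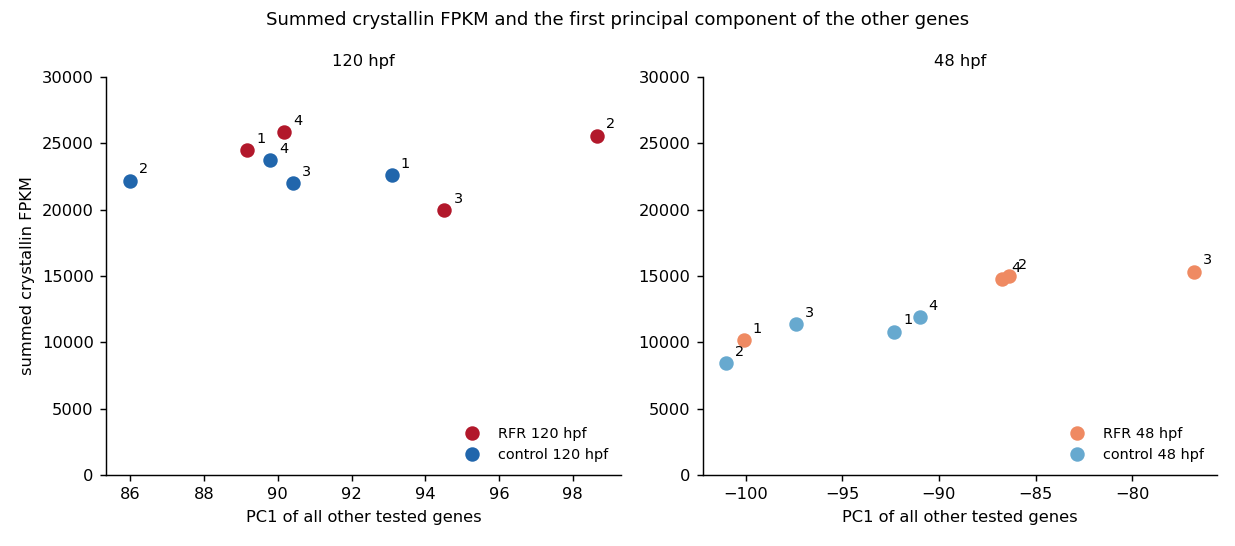
Summed crystallin FPKM (y axis, from 0) against the first principal component of all other tested genes (x axis) in each library, labelled by replicate, at 120 hpf in the left panel and at 48 hpf in the right. At 48 hpf the 3 RFR libraries with sums of 14790 FPKM or more also have the 3 highest component values, and RFR replicate 1 lies with the controls at 10137 FPKM and -100.1.

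Genes of the lens other than crystallins and of the rest of the eye were read from lists of markers. At 48 hpf 13937 of all 23026 genes tested were positive, with a median log2 fold change of 0.04. Of 18 tested genes for lens membrane, cytoskeleton and fibre maturation, 14 were positive with a median of 0.12 and 0 called. Their summed FPKM was 599 to 642 in RFR and 517 to 618 in control embryos. The largest differences by p in this list were those of epha2a, an ephrin receptor of lens fibres (-0.44, limma adjusted p = 0.338), dnase1l1l, a nuclease that clears fibre cell DNA (0.53, adjusted p = 0.372) and lgsn, a lens glutamine synthetase-like protein (0.70, adjusted p = 0.425). The 3 highest genes of the list, fabp11a, lim2.4 and mipb, differed by 0.04, 0.08 and 0.15, and mipb encodes a lens water channel.

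Against 13937 of all 23026 genes, transcription factors of lens development were positive in 12 of 13 tested. Their median was 0.22 and 0 were called by limma. The smallest adjusted p were those of prox1a, needed for fibre elongation (0.45, adjusted p = 0.251), six3a (0.28, adjusted p = 0.263) and pax6b, an eye master regulator (0.37, adjusted p = 0.282). hsf4, the heat shock factor of the lens, differed by 0.45 with an adjusted p of 0.448. Most of these factors also act in the retina or brain. The list summed to 245 to 262 FPKM in RFR and 200 to 223 FPKM in control embryos of 48 hpf, with no overlap of the groups. Among all genes taken singly, 3% had every RFR library above every control at this stage. The sums of the other lists overlapped, and no list sum was tested.

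Lists for other tissues gave values on both sides of 0. Over all genes at 48 hpf the median was 0.04, with 13937 of 23026 positive. At 48 hpf the medians were 0.37 for 9 other retinal genes with 7 positive, 0.35 for 10 neuron genes with 10 positive and 0.16 for 20 photoreceptor genes with 14 positive. They were 0.09 for 8 epidermis genes with 5 positive and 0.06 for 11 muscle genes with 9 positive. Small heat shock genes other than alpha crystallins gave -0.01 for 10 genes with 5 positive, and erythroid genes -0.25 for 9 genes with 1 positive. Limma called 0 in each of these lists. In RFR replicate 1 the summed FPKM of the neuron list was 848 and of the other retinal list 161, against 971 to 1012 and 202 to 213 in the other RFR libraries and 729 to 876 and 128 to 169 in the controls. The photoreceptor list was 59.85 FPKM in RFR replicate 1, against 111 to 125 in the other RFR libraries and 48.1 to 93.6 in controls. The lens membrane and fibre list was 599 FPKM in that replicate, against 634 to 642 and 517 to 618. The lens transcription factor, epidermis, erythroid, small heat shock and muscle lists did not follow this pattern. For erythroid, small heat shock and muscle genes the lowest RFR library was replicate 4. It had 5423, 75.5 and 31868 FPKM, against 8345, 87.7 and 31878 FPKM in RFR replicate 1. The lens transcription factors gave 252 FPKM in RFR replicate 1, inside the 245 to 262 FPKM of the other RFR libraries and above the controls. The epidermis list was highest in RFR replicate 1 among the RFR libraries, at 12589.6 FPKM, against 11056.4 to 12510.1 FPKM in controls. The part of eye and nerve tissue in the crystallin values was not tested.

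At 120 hpf, 72 h after the exposure, no crystallin differed between RFR and control larvae in the test. The summed FPKM was 1.06 times the control mean. RFR replicates 1, 2 and 4 lay above every control sum and replicate 3 below all of them. Of the 33 abundant genes, 30 had the higher mean in RFR larvae. Over all 33 the RFR mean was 0.945 to 1.2 times the control mean. The log2 fold change was above 0 in 39 of 52 tested crystallins and below 0 in 13, with a median of 0.06 against -0.0035 over all genes. Among all genes tested, 11264 were above 0 and 11758 below. limma called 0 crystallins and 0% of all genes at an adjusted p under 0.05. At an unadjusted p under 0.05 it found 0 crystallins and 4.13% of all genes in either direction. Of the tested crystallins, 0 had every RFR library above every control, as 0.886% of all genes did. crygm4, which was too low to be tested, measured 0.12, 0.49, 0.12 and 0.12 FPKM in RFR larvae and was listed at 0 in the 4 controls.

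The class medians at 120 hpf were 0.10 for crygm2d genes, 0.06 for beta A, 0.05 for beta B and -0.20 for the 2 tested gamma S genes. Other gamma M genes had a median of -5.7e-05, with 5 of 10 positive. The medians were 0.07 for gamma N, 0.01 for alpha and -0.01 for beta-gamma, each with 2 tested genes. crygm2f, a low gamma M gene at the edge of the crygm2d stretch, had the smallest p. It measured 9.65, 10.54, 6 and 10.96 FPKM in RFR larvae, against 18.05, 14.55, 15.92 and 14.68 FPKM in controls. Every RFR library was below every control, as in 1.22% of all genes, with a log2 fold change of -0.76 ± 0.39 (SE) and an adjusted p of 1 in limma.

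The next smallest p at this stage belonged to crygm1, which differed by 0.46 ± 0.31 (SE) at 0.853 FPKM in RFR and 0.448 FPKM in control larvae, and to crygm2d12, which differed by 0.21 ± 0.17 at 584 ± 79.8 FPKM in RFR and 501 ± 32.4 FPKM in control larvae (SD, n = 4 each). crybb2, crygm2d16, crybb3, crygm2d8, crygm2d1, crygmxl1 and crygm2d19 completed the 10 smallest, at log2 fold changes of -0.20 to 0.28. All had an adjusted p of 1 in limma.

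RFR replicate 3 of 120 hpf was the lowest of its group in 31 of the 33 abundant genes, at 19957 FPKM in sum against 24482 to 25840 FPKM in the other 3 RFR libraries. Without it the median log2 fold change over crystallins was 0.16, again with 0 called. In the same library the 8 epidermis genes summed to 4854 FPKM, against 9932 to 10956 FPKM in the other RFR larvae and 7868 to 10000 FPKM in controls. The part of this difference in the crystallin values was not tested.

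The difference between the effects, 120 minus 48 hpf, was below 0 in 45 of 52 crystallins. Its median was -0.30, against -0.05 over all genes, of which 13796 of 23026 were also below 0. limma called 0 crystallins and 0% of all genes, and at an unadjusted p under 0.05 it found 4 crystallins, all lower, and 6.84% of all genes in either direction. As a share of the 52 tested, these 4 were near the background of all genes. The 4 were crygm2d15 (effect -0.08 at 120 hpf and 0.78 at 48 hpf, difference -0.87 ± 0.31), crygmx (-0.0024 and 0.33, difference -0.33 ± 0.12), crygm2d9 (-0.05 and 0.56, difference -0.62 ± 0.25) and crybb1 (0.01 and 0.31, difference -0.30 ± 0.13), with limma adjusted p of 0.637 to 0.690. Without RFR 48 hpf replicate 1, limma called crygm2d15 (difference -1.18, adjusted p = 0.0123). It was the only gene called among all genes tested, and so is itself the 0.00434% called. On all libraries, no crystallin was shown to differ in its RFR effect between the stages.

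Between 48 and 120 hpf crystallin mRNA rose in both groups. The summed FPKM was 2.13 times as high at 120 as at 48 hpf in controls and 1.74 times in RFR embryos, with no overlap between stages. All 33 abundant genes had the higher mean at 120 hpf, with a median ratio of 2.15 in controls and 1.73 in RFR embryos. These genes were chosen by their mean over the libraries of both stages, so their level at 120 hpf helped to choose them. Group means of at least 100 FPKM were seen in 33 members in each group of 120 hpf. At 48 hpf they were seen in 31 members in RFR and 29 in control embryos. Over all 59 members, the mean was higher at 120 hpf in 50 and lower in 7 in controls, and higher in 52 and lower in 7 in RFR embryos.

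In controls limma called 45 crystallins higher and 3 lower at 120 hpf, against 38.3% of all genes higher and 27.9% lower. In RFR embryos it called 45 higher and 2 lower, against 36.1% and 29.2% of all genes. The same 45 genes were called higher in both groups. Of the 52 tested genes, 6 reached the filter in fewer than 4 libraries of 48 hpf and so passed it through their level at 120 hpf, and they had to differ. The median log2 fold change was 1.1 in controls, against 0.12 over all genes, and 0.83 in RFR embryos, against 0.08 over all genes. Other scalings moved the median of all genes. In controls the all-gene median was -0.139 with quantile normalization and 0.0192 with median-ratio scaling, and crystallins stood 0.978 above it as deposited, 1.12 above with quantile normalization and 0.975 above with median-ratio scaling. In RFR embryos the all-gene median was -0.133 and 0.0161 under the same scalings, and the gap was 0.753 as deposited, 0.808 and 0.743. Of all genes called, 8811 were higher and 6416 lower in controls, against 6336 higher and 8906 lower with quantile normalization. In RFR embryos 8305 were higher and 6727 lower, against 6312 higher and 8821 lower with quantile normalization.

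Crystallin sums by class were compared between the stages. In controls the ratio of summed FPKM at 120 over 48 hpf was 3.3 for alpha, 2.46 for crygm2d, 2.32 for other gamma M, 1.89 for gamma N, 1.73 for beta A and 1.65 for beta B genes. It was 44.0 for the beta-gamma class, which is crybgx and crybg3 alone, and 1.1 for the scarce gamma S genes. In RFR embryos it was 2.66 for alpha, 1.93 for crygm2d, 1.78 for other gamma M, 1.58 for gamma N, 1.47 for beta A and 1.4 for beta B genes, with 30.8 for beta-gamma and 0.444 for gamma S genes. The order of the classes was the same in both groups. The stages did not overlap in any of these sums except that of gamma S, which overlapped in both groups. Limma called all 21 crygm2d and all 7 beta A genes higher in each group, against 38.3% of all genes in controls and 36.1% in RFR embryos. The crygm2d genes are close copies, and the differences between classes were not tested.

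crybgx showed the largest rise. It measured 344, 346, 273 and 370 FPKM in RFR larvae of 120 hpf, against 0.63, 7.6, 4.32 and 9.53 FPKM in RFR embryos of 48 hpf. In controls it measured 348, 292, 319 and 351 FPKM at 120 hpf, against 1.67, 1.24, 1.27 and 4.77 FPKM at 48 hpf. The gene was below 10 FPKM in every library of 48 hpf and among the abundant crystallins in every library of 120 hpf. The log2 fold change was 6.18 ± 0.5 (SE) in RFR and 7.07 ± 0.5 in controls, with limma adjusted p of 1.67e-08 and 3.12e-09.

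crygm2d11 had the next largest rise, and unlike its neighbours it started from a low level. It measured 602, 556, 465 and 601 FPKM in RFR larvae of 120 hpf, against 9.07 to 58.8 FPKM in RFR embryos of 48 hpf. Control larvae of 120 hpf had 529, 540, 542 and 544 FPKM, against 4.17 to 27.3 FPKM in control embryos of 48 hpf. The log2 fold change was 4.26 ± 0.49 (SE) in RFR and 5.47 ± 0.49 in controls, with limma adjusted p of 1.01e-06 and 5.12e-08. Among the other 20 crygm2d genes the largest rise was that of crygm2d16, at 1.81 in RFR and 2.21 in controls, so that crygm2d11 was at 120 hpf in the range of its class and at 48 hpf far below it.

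Among genes that averaged at least 50 FPKM in 1 of the stages, the other large rises in both groups were those of crygm2d15 (1.2 in RFR, 2.07 in controls), crygm2d14 (1.36 in RFR, 1.95 in controls), crygm2d2 (1.33 in RFR, 1.74 in controls), crygm2d4 (1.04 in RFR, 1.42 in controls), crygmx (1.39 in RFR, 1.72 in controls) and cryaa (1.40 in RFR, 1.71 in controls). crygm2d7 stood among the 10 largest rises of such genes in controls (1.42) and crygm2d12 in RFR embryos (1.18). Only genes called by limma at an adjusted p under 0.05 entered this ranking. Genes of the low set rose from near 0, among them crygn1, with 13.2 FPKM in RFR larvae of 120 hpf against 0.788 FPKM at 48 hpf, and 12.2 FPKM in control larvae against 0.605 FPKM at 48 hpf (log2 3.40 in RFR and 3.55 in controls).

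The few falls were among scarce transcripts. crygmxl1 fell in both groups, to 0.58, 1.02, 0.88 and 1.23 FPKM in RFR larvae of 120 hpf, against 2.41, 3.35, 3.23 and 4.05 FPKM at 48 hpf. In controls it fell to 0.8, 1.59, 1.04 and 1.11 FPKM at 120 hpf, against 3.63, 1.83, 4.09 and 2.74 FPKM at 48 hpf. The log2 fold changes were -1.40 ± 0.21 (SE) in RFR and -1.10 ± 0.21 in controls, with limma adjusted p of 2.54e-05 and 0.000265.

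**Figure D5:**
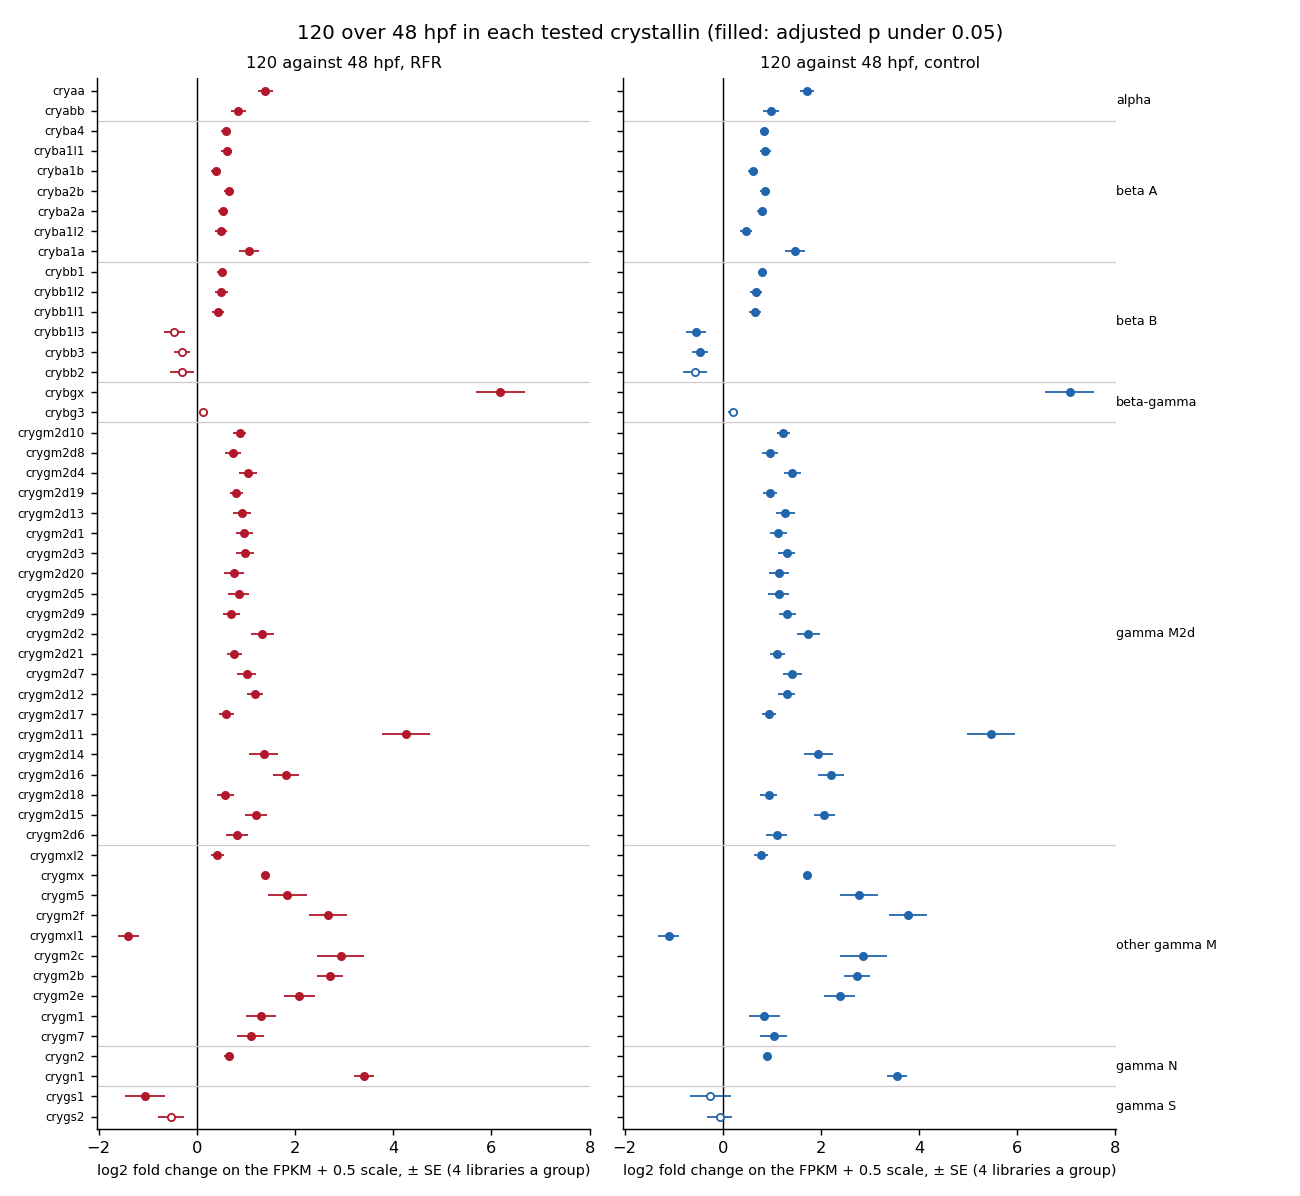
Log2 fold change of 120 over 48 hpf on the FPKM + 0.5 scale (x axis, ± SE, 4 libraries a group) for the 52 tested crystallins, in RFR embryos in the left panel and in controls in the right. Filled marks passed an adjusted p of 0.05 in limma. crybgx, crygm2d11, crygm2f and crygn1 show the largest rises in controls, at 7.07, 5.47, 3.77 and 3.55.

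The remaining falls were called in 1 group and under some settings. crybb1l3 fell in controls by 0.54 ± 0.21 (SE) on the log2 scale, with 2.83 FPKM at 120 hpf against 4.59 FPKM at 48 hpf and a limma adjusted p of 0.0331. crybb3 fell in controls by 0.46 ± 0.16, with 0.245 FPKM at 120 hpf against 0.517 FPKM at 48 hpf and an adjusted p of 0.0206. crygs1 fell in RFR embryos by 1.05 ± 0.41, with 0.365 FPKM at 120 hpf against 1.23 FPKM at 48 hpf and an adjusted p of 0.0333. Each of the 3 lost its call on replicates 1 to 3 only, and also when certain single libraries were left out. In a fit of only the groups compared, crybb1l3 and crygs1 lost theirs as well (limma adjusted p = 0.0781 and 0.0538). In the other group each also had a negative log2 fold change that was not called. In RFR embryos it was -0.46 for crybb1l3 (limma adjusted p = 0.0685) and -0.31 for crybb3 (0.104). In controls it was -0.25 for crygs1 (limma adjusted p = 0.608). crybb3 and crygs1 were among 4 tested genes that reached 0.5 FPKM in fewer than 4 libraries of 120 hpf. They passed the filter through their level at 48 hpf, so their falls are given only as a description.

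The other lens genes changed in both directions between the stages. In controls 7 of 18 tested lens membrane and fibre genes were called higher and 6 lower by limma, shares near the 38.3% higher and 27.9% lower of all genes. Their median log2 fold change was 0.24, against 0.12 over all genes. lgsn (1.64), grifin, a galectin-like lens protein (1.13) and bfsp2, a beaded filament protein (1.07) were higher, and epha2a (-2.06), fabp11a (-1.30) and gja8b, a lens connexin (-1.15) were lower. Of 13 lens transcription factors 3 were called higher and 7 lower, while 18 of 20 photoreceptor genes were called higher and 1 lower. As expression is relative to the whole embryo, these values compare genes within the same libraries and say nothing of absolute amounts.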

How the data were processed

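Whole-embryo RNA was sequenced in 16 libraries, 4 a group. The deposited table holds FPKM values with 32513 genes, and 6349 of its rows carry no symbol. Per the submitters' processing notes, HISAT2, Bowtie2 and DESeq2 were used with build GRCz11. Their roles and versions, and the program that gave FPKM, are not given in the sources used here. Clean read counts and the percent of reads mapped were taken from the authors' deposited summaries, and raw read totals from the deposited filter summary. FPKM keeps no read counts, so no count test was run.

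A single limma fit (version 3.58.1 in R 4.3.3) estimated the 4 group means from log2(FPKM + 0.5), used a mean-variance trend and left 12 residual degrees of freedom. It covered the 23026 genes that reached 0.5 FPKM in 4 or more libraries. A fold change on this scale understates the change of low genes. Two-sided p-values were adjusted by the Benjamini-Hochberg method across every gene tested, and an adjusted p under 0.05 was a call. The median SE of a log2 fold change between RFR and control at 48 hpf was 0.144 over all genes. The fit was run on simulated data in which the noise of each gene was drawn on its own. Shifts shared by a whole library were not simulated, so that run does not speak to them. Tables and plots were made in Python 3.11.15 with pandas 2.3.3, numpy 2.4.6 and matplotlib 3.10.9.

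The members, marker lists and classes were chosen with earlier results of these data known. Of 112 list entries, 110 were matched by the table's symbol, 1 by its current symbol, and 1 was not matched. Named were all alpha and crybg genes, the 3 most abundant of each other class, the 10 smallest p in each RFR comparison and every crystallin called there. In development the 10 largest rises among called crystallins at 50 FPKM or more and all falls called were named. The genes of the gamma locus, the other low genes, and the division at 100 and 10 FPKM were added after values were seen. All 59 members matched the RefSeq table by gene ID, 58 with the same symbol. Alternatives were other pseudocounts, filters and scalings, library weights, fewer libraries, and replicate number or replicate 4 as a term.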

Additional observations from a re-analysis of the deposited data

Results flagged for a closer look

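In groups of 4 libraries, the levels of the named crystallins and the class sums were examined for 1 library whose gap to its nearest neighbour took more of the group's range than Dixon's critical value at 95% allows. Of 185 groups of values, 26 held such a library, where chance gives about 1 in 20. The sums are made of the same genes, so the 26 are not independent.

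RFR replicate 1 of 48 hpf stood apart below its group in 15 of them. For beta crystallins it had 649.49 FPKM of cryba1b, 768.52 FPKM of cryba4 and 478.02 FPKM of crybb1l1. For gamma crystallins it had 72.64 FPKM of crygm2d14, 138.17 FPKM of crygm2d2, 176.71 FPKM of crygm2d7, 415.83 FPKM of crygm2d8 and 241.06 FPKM of crygmxl2. Its sums were 2702.02 FPKM for beta A, 1920.49 FPKM for beta B, 4622.51 FPKM for all beta, 4493.29 FPKM for crygm2d, 388.57 FPKM for other gamma M, 5483.34 FPKM for all gamma and 10137 FPKM for all crystallins.

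RFR replicate 3 of 120 hpf stood apart below its group in cryba4 at 1149.06 FPKM, in crygm2d8 at 784.52 FPKM, in summed beta A at 3904.44 FPKM and in summed other gamma M at 745.12 FPKM. Control replicate 4 of 120 hpf stood apart above its group in crybb1l2 at 908.04 FPKM, in summed beta B at 3376.87 FPKM and in summed crygm2d at 13079.2 FPKM. Control replicate 4 of 48 hpf stood apart above its group in crybgx at 4.77 FPKM and in the beta-gamma sum at 10.17 FPKM. Control replicate 2 of 48 hpf stood apart below its group in crygm2d1 at 260.68 FPKM and in crygm2d9 at 183.09 FPKM.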

How the results depend on the processing

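At 48 hpf the median RFR effect over crystallins stayed positive, at 0.28 to 0.379 over 12 alternatives and 0.258 to 0.515 with 1 library left out. At 120 hpf it was 0.0482 to 0.106 and 0.0184 to 0.156. The log2 ratio of the sums was 0.285 to 0.503 at 48 hpf and 0.0443 to 0.161 at 120 hpf with 1 library left out. Limma called 0 crystallins at either stage under the 12 alternatives, and the smallest adjusted p of a crystallin was 0.0569, with library weights at 48 hpf. Leaving out 1 library gave 0 to 18 crystallins called at 48 hpf and 0 to 1 in the difference of effects. Of all genes, 1 was called at 48 hpf, against 3 with log2(FPKM + 0.1), 2 with no filter, 0 at a mean of at least 1 FPKM, 8 with library weights, 0 in a fit of only the groups compared, and 1 to 389 with 1 library left out. At 120 hpf 0 genes were called, against 4 with no filter and 1 with the replicate block. In the difference of effects 0 were called, against 1 with log2(FPKM + 0.1), 1 with quantile normalization, 1 on replicates 1 to 3 only, and 0 to 1 with 1 library left out. In development 44 to 50 crystallins were called in controls and 43 to 49 in RFR embryos over the alternatives, of 45 to 59 crystallins tested. Of all genes, 13489 to 15986 were called in controls and 13333 to 15807 in RFR embryos, of 19172 to 32513 tested. The number tested changed with the filter, so these ranges are not a measure of how stable single calls were. crybg3 at 48 hpf (0.04) was -0.0208 with median-ratio scaling, -0.0135 with quantile normalization, and -0.0241 to 0.0816 with 1 library left out. Same-numbered RFR and control libraries correlated in their deviations at -0.111 to 0.308 at 48 hpf and 0.0578 to 0.276 at 120 hpf. Differently numbered ones correlated at -0.23 to 0.333 and at -0.281 to 0.283. These overlapping ranges do not settle whether the numbers pair libraries, though all same-numbered values were positive at 120 hpf. The labels state no pairing, so the main fit used none. With the replicate block 0 crystallins were called at 48 hpf (smallest adjusted p = 0.282) and 0 at 120 hpf. Raw read totals were the same in replicates 1 to 3 of each group and differed in replicate 4. On replicates 1 to 3 only the crystallin median at 48 hpf was 0.343 with 0 called, and with replicate 4 as a term the smallest adjusted p was 0.237. The causes of these changes were not tested. FPKM near 0 carry few reads, and the depth behind each value is unknown.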
